A study of Mus musculus with 5 samples.

Results

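Among CD11b+Ly6Chi cells sorted from mouse bone marrow (BM), 140 of 4455 had at least 1% of their transcripts from Mpo, Elane, Prtn3 and Ctsg together, and these are described here as azurophil-high cells. The libraries counted unique molecular identifiers (UMIs), each standing for 1 captured transcript, and a cell was kept if it had at least 200 detected genes and less than 20% of UMIs from mitochondrial genes. The 4 genes chose the cells, so their own levels in the chosen cells are a description and not a result. In all, 5 libraries with 25975 kept cells were read, 1 for each group, so no replicate error could be given and no test was made. Intervals are exact at 95% and cover counting error only. Every fold below is therefore a difference between sets of cells, and where it compares naive with CTX it is a difference between 2 libraries.

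The sorted cells came from untreated (naive) BALB/c mice and from BALB/c mice given cyclophosphamide (CTX), an alkylating drug that kills dividing marrow cells, as 150 mg/kg dissolved in PBS and injected into the peritoneum. Both sexes were used in the study, and its description of the experiment places the sort on day 7 after CTX, while the labels of the sorted CTX library name no day. Per the labels, cells of 3 mice were mixed in equal numbers for each condition, in a text that all libraries share and that does not say separately how the sorted cells were pooled. Differences between mice cannot be seen. The gate took cells carrying the integrin CD11b and a high amount of Ly6C, the usual surface pair for classical monocytes. The other 3 libraries held whole BM of naive mice, of mice on day 2 after CTX (D2 CTX) and of mice on day 7 (D7 CTX).

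Azurophil granules are the first granules that a developing neutrophil packs. Myeloperoxidase (Mpo), neutrophil elastase (Elane), proteinase 3 (Prtn3) and cathepsin G (Ctsg) are their main contents, transcribed in granulocyte-monocyte progenitors and promyelocytes and silenced before the cell matures. Monocyte progenitors that arise from the same precursors transcribe these genes for a while too, while they take up the monocyte programme under the transcription factors Irf8 and Klf4, and granulocyte development runs under Gfi1 and Cebpe.

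The 4 genes lie at 3 places in the genome (mm10, GENCODE gene models). Mpo (ENSMUSG00000009350) is on the plus strand of chromosome 11 from 87793581 to 87804413. Elane (ENSMUSG00000020125, chromosome 10, 79886247 to 79888215) and Prtn3 (ENSMUSG00000057729, chromosome 10, 79874476 to 79883174) are neighbours on the plus strand, with 3072 bases between the end of Prtn3 and the start of Elane. Ctsg (ENSMUSG00000040314, chromosome 14, 56099881 to 56102574) is on the minus strand. All 4 promoters hold the letters AGGAAGT on the strand of the gene, a sequence of the kind that ETS family factors such as PU.1 bind, and the stretch around it is shown because these 4 genes define the cells. The windows are from RefSeq promoters (GRCm38.p6), 5′ to 3′ on the strand of the gene, with the searched letters in capitals: chr11:87793534-87793607 (plus) for Mpo, chr10:79886188-79886274 (plus) for Elane, chr10:79879533-79879619 (plus) for Prtn3 and chr14:56102734-56102820 (minus) for Ctsg.
Mpo: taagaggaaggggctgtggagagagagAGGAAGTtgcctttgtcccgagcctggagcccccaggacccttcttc
Elane: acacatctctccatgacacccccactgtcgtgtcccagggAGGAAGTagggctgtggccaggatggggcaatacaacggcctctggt
Prtn3: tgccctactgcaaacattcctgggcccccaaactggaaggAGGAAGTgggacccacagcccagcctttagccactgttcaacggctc
Ctsg: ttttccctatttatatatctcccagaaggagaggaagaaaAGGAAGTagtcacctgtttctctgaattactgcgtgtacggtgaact
The first letter of the match lay 223, 84, 94 and 206 bases before the RefSeq start of Mpo, Elane, Prtn3 and Ctsg. For Mpo, Elane and Prtn3 the RefSeq start lies further into the gene than the start of the gene model given above. The Prtn3 window therefore lies inside its gene model, and the windows of Mpo and Elane span the start of theirs. Over all 32851 promoters of the same length (250 bases before to 50 after the start), 1639 (4.99%) held AGGAAGT on the strand of the gene, and 3072 (9.35%) held it or its reverse complement ACTTCCT on either strand. The letters were chosen after these promoters had been read, and a match is a description of the sequence, not a binding site.

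Azurophil-high cells were 35 of 1891 kept cells (1.85%, 1.29 to 2.56) in the naive library and 105 of 2564 (4.10%, 3.36 to 4.94) in the CTX library, a ratio of 2.21 (1.5 to 3.34). Few as they were, they held 40.9% of all UMIs of the 4 genes in the naive library and 60.1% in the CTX library. They were deep cells, with a median of 20042 UMIs and 4004 genes against 10231 UMIs and 2885 genes in the other naive cells, and 16587 UMIs and 3482 genes against 9552 UMIs and 2812 genes in the other CTX cells. Their median mitochondrial share was 5.07% against 4.07% (naive) and 4.91% against 4.17% (CTX). The libraries held 2223 and 2978 barcodes with 22694817 and 29139672 UMIs, and 1 kept barcode occurred in both, in no azurophil-high cell. Of 29 naive and 53 CTX cells with the highest doublet scores, 0 and 2 were azurophil-high.

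The share of UMIs from the 4 genes reached 3.75% (median 1.69%) in the naive azurophil-high cells and 11.6% (median 2.15%) in those of CTX mice. The 4 highest CTX cells were of low depth or high mitochondrial share, at 11.6% (1358 UMIs), 11.1% (18.6% mitochondrial), 10.1% (19.3% mitochondrial) and 8.06% (1910 UMIs), and the next stood at 6.77% with 15620 UMIs. All 4 genes were seen in 35 of 35 and in 104 of 105 of them. Levels are given here as UMIs per 1000000 UMIs (CPM) of the summed cells. In naive and CTX azurophil-high cells, Mpo stood at 4807 and 5843 CPM, Elane at 5165 and 8444, Prtn3 at 6874 and 9415, and Ctsg at 2326 and 3164. In the other sorted cells Mpo was at 95.4 and 108 CPM and Elane at 229 and 281 CPM.

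The limit of 1% fell on a slope and not in a gap. The 6 naive cells at 0.9 to 1% had 2570 CPM of Mpo, 1677 of Elane, 4220 of Prtn3 and 1276 of Ctsg, and the 8 at 1 to 1.1% had 1849, 3082, 4157 and 1288. In the CTX library the 14 cells just below had 1538, 2341, 4147 and 1375 CPM, and the 8 just above had 1837, 2953, 4744 and 1219. Irf8 was at 775 and 603 CPM just below and just above in naive cells and at 649 and 909 in CTX cells, and Ccr2 at 538 and 384 CPM in naive and 408 and 366 CPM in CTX cells.

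Higher up the sorted libraries differed, and only that of CTX reached 4%. This limit was set as a band, and the CTX cells nearest to it had 3.54% and 4.02%. Cells with 4% or more of their UMIs from the 4 genes numbered 27 in the CTX library (1.05%, 0.695 to 1.53) and 0 in the naive library, where a floor of 3 cells corresponds to 0.159% and the exact upper limit is 0.195%. At 1 to 2% there were 22 naive (1.16%) and 50 CTX cells (1.95%), and at 2 to 4% there were 13 (0.687%) and 28 (1.09%). The cells at 4% and above had a median of 15850 UMIs, against 16711 and 18006.5 in the CTX cells at 1 to 2% and 2 to 4%, and a median mitochondrial share of 5.98%.

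**Figure D1:**
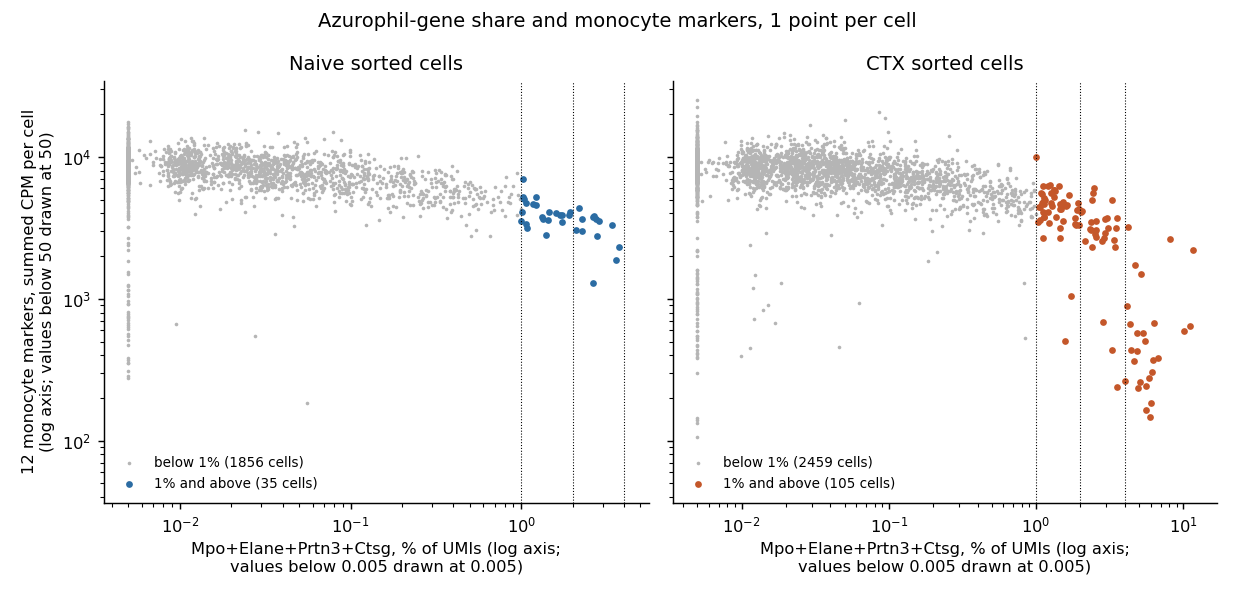
Each point is 1 sorted cell, with the percent of its UMIs from Mpo, Elane, Prtn3 and Ctsg on the horizontal log axis and its summed level of 12 monocyte markers (CPM) on the vertical axis, for the naive and the CTX library. Cells at 1 to 4% stand mostly above 1000 CPM of monocyte markers in both libraries, while 22 of the 27 CTX cells at 4% and above lie below it.

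By marker genes, the azurophil-high cells at 1 to 4% kept part of the monocyte programme. Most of those at 4% and above kept little of it. A list of 12 monocyte markers summed to 3687 CPM in naive azurophil-high cells and to 3953 CPM in CTX cells at 1 to 4%, below the 7734 and 7566 CPM of the other sorted cells, and to 666 CPM at 4% and above. Per cell, the sum was 2827, 3958 and 6947 CPM (lowest, median and highest) in naive cells at 1 to 2% and 1297, 3314 and 4336 CPM at 2 to 4%. It was 241, 4097 and 10017 CPM in CTX cells at 1 to 4%, against 146, 435 and 3218 CPM in CTX cells at 4% and above. The value of 10017 CPM came from a cell with only 599 UMIs, and the next highest at 1 to 4% was 6368 CPM. Below 1000 CPM were 0 of 35 naive cells, 4 of 78 CTX cells at 1 to 4% and 22 of 27 CTX cells at 4% and above. What was left of the list at 4% and above was led by Ly6c2, a gene of the sorted antigen, at 328 CPM.

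Gene by gene the same divide was seen in the regulators. Irf8, the transcription factor that favours monocytes over granulocytes, was at 775 and 677 CPM in naive cells at 1 to 2% and 2 to 4%. In CTX cells it was at 812 and 708 CPM and fell to 62.6 CPM at 4% and above, a log2 ratio of -3.61 (-4.26 to -3.06) to the CTX cells at 1 to 4%. Klf4, which acts later in the same lineage, went from 410 and 169 to 17.5 CPM in CTX cells, with 361 and 197 CPM in naive cells. Ccr2, the chemokine receptor that lets monocytes leave the marrow, had 341, 173.5 and 10.0 CPM in the 3 CTX sets and 327 and 218 CPM in the naive ones. Ccr2 and Klf4 fell step by step across the sets, whereas Irf8 was level up to 4% and then dropped.

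The granulocyte regulators ran the other way. Gfi1, the repressor that keeps granulocyte precursors from the monocyte path, had 2.3 and 20.7 CPM in CTX cells at 1 to 2% and 2 to 4% and 140 CPM at 4% and above, on 56 UMIs, against 0 and 6.8 CPM in naive cells. Cebpe, which drives the later granule genes, had 71.9, 134 and 395.5 CPM in the CTX sets and 60.1 and 68.0 CPM in the naive ones. Cells were also thinned to 5000 UMIs, which left out those with fewer, 2 of 27 at 4% and above and 199 of 2157 CTX cells below 0.2%. Unthinned percents are of all cells of a set. A Gfi1 UMI was present in 13 of 25 thinned cells (52.0%, or 74.1% unthinned) at 4% and above and 10.7% (21.4%) at 2 to 4%. It was present in 0.204% (0.371%) of CTX cells below 0.2%, which serve as the background. An Irf8 UMI was present in 20% (22.2% unthinned) of thinned cells at 4% and above, 92.9% at 2 to 4% and 81.0% below 0.2%. Most of the cells at 4% and above shared the low Irf8, and most of those below that limit kept it.

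**Figure D2:**
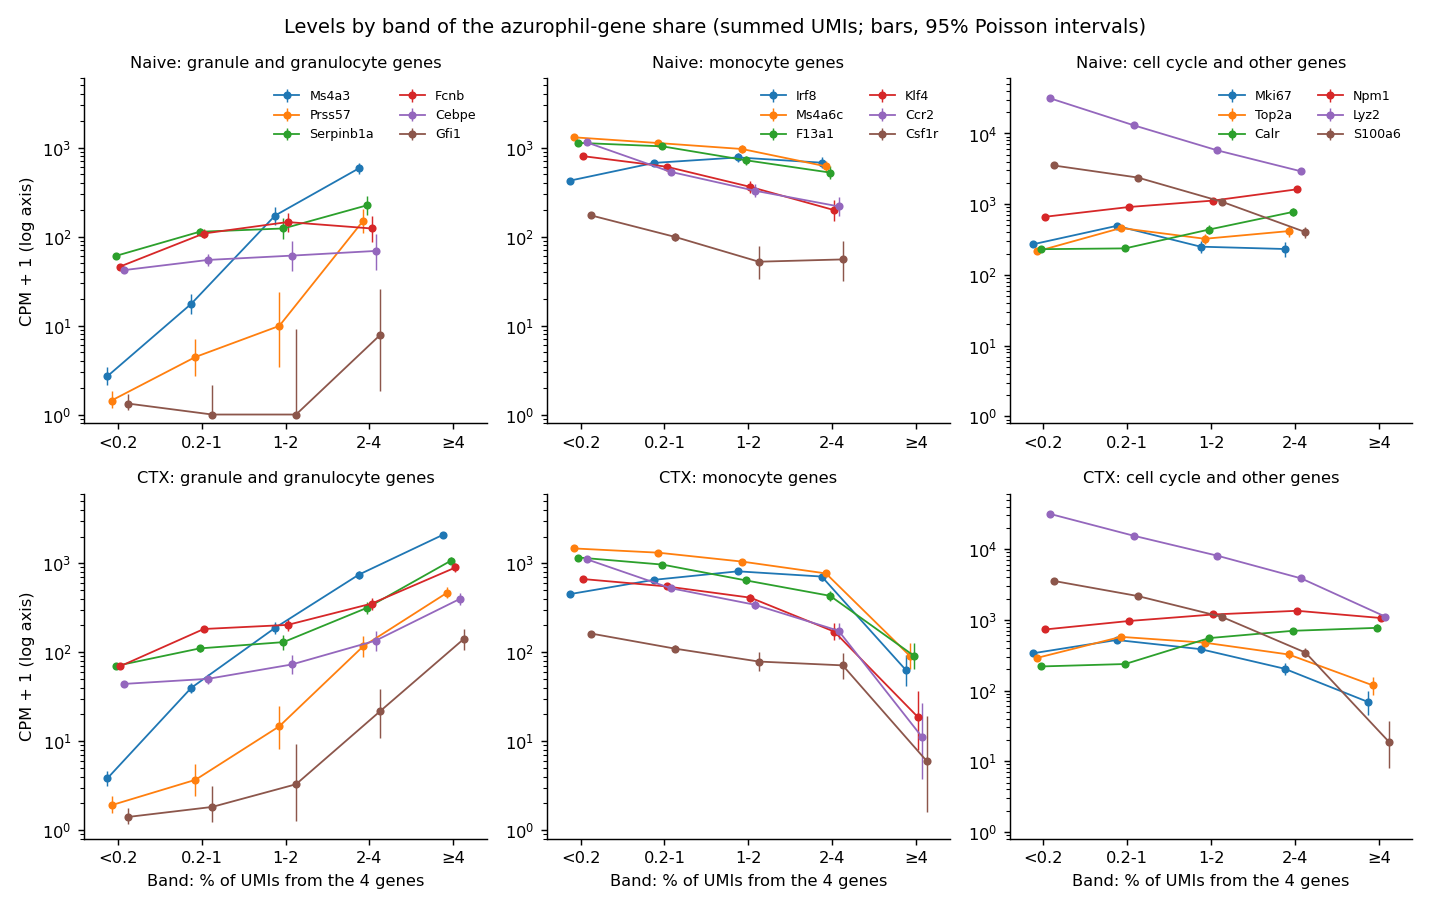
Levels (CPM + 1, log axis) of granule and granulocyte genes, monocyte genes, and cell cycle and other genes, with sorted cells placed along the horizontal axis by the percent of their UMIs from Mpo, Elane, Prtn3 and Ctsg, for the naive library above and the CTX library below; bars are exact Poisson intervals and lines join the points of a gene. Irf8, Klf4 and Ccr2 end at 62.6, 17.5 and 10.0 CPM at 4% and above in the CTX library, where Gfi1 and Cebpe reach 140 and 395.5 CPM.

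Compared with the CTX cells at 1 to 4%, those at 4% and above had 39 of 1155 genes (3.38%) higher by 1 log2 unit or more and 135 (11.7%) lower by as much, with a median over all compared genes of -0.14. The rule used the same cells, so these counts describe the divide and do not test it. The tetraspanin Cd63, a membrane protein of azurophil granules, was at 716 against 33.1 CPM (log2 4.39, 3.98 to 4.92). The serine protease Prss57 was at 466 against 49.99 CPM (3.19), the granule membrane protein Nkg7 at 1014 against 130 CPM (2.95), and serglycin (Srgn), the proteoglycan that holds the proteases in the granule, at 4826 against 886 CPM (2.44). Of the other granule and protease genes, 6 of 8 compared were higher, with a median of 2.45. The exceptions were lysozyme Lyz2 at 1109 against 6561 CPM (-2.56) and Ctsc, the peptidase that activates the serine proteases, at 67.6 against 373 CPM (-2.45). The cells richest in the proteases were therefore the poorest in the transcript of their activator, and in naive cells too Ctsc was lower at 2 to 4% (292.5 CPM) than below 0.2% (715 CPM).

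On the lower side, all 6 compared monocyte genes were below the limit of -1 (median -3.49). The calcium-binding protein S100a6 was at 17.5 against 832 CPM (-5.49), and S100a4 had no UMI against 101 CPM, at least 13.5-fold lower. Immediate early genes were lower for 8 of 8 (median -2.11), with Fos at 148 against 1558 CPM (-3.39). The cells at 4% and above also carried fewer transcripts of division: 14 of 22 G2/M genes were lower and 0 higher (median -1.13), Mki67 at 67.6 against 384 and 202 CPM at 1 to 2% and 2 to 4%. S phase genes did not follow, with 0 of 12 past the limit (median -0.50), nor did chaperones and transport genes of the endoplasmic reticulum (0 of 23, median 0.21) or cytosolic ribosomal proteins (0 of 80, median 0.13).

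Of 9 neutrophil markers, 4 could be compared, and S100a8, S100a9 and Ngp were higher and Camp lower at 4% and above. Few cells carried Ngp there, with an Ngp UMI in 8 of 27. Of those 27 cells, 6 had at least 0.1% of their UMIs from Camp, Ltf and Ngp, and these were kept. The direction of Camp turned without 2 of the 78 cells at 1 to 4%, with 32.5 CPM at 4% and above against 357 CPM with them and 6.78 CPM, on 9 UMIs, without them. The list summed to 36933 CPM there, nearly all of it S100a9 (22578 CPM) and S100a8 (13648 CPM), with 4 of the 9 at 0, against 11543 CPM at 1 to 4%, or 6200 CPM without the same 2 cells, which were rich in Camp and Ngp. Mmp8, a collagenase of neutrophil granules, had no UMI against 20 UMIs at 1 to 4%. Per cell the sum ran from 348 to 172775 CPM (median 23566) at 4% and above and from 0 to 240873 CPM (median 1113) at 1 to 4%, so the sums of both sets rested on unequal cells. Ly6g, the surface marker of mature neutrophils, had no UMI in azurophil-high cells of either library. Vcam1, from a list of macrophage markers, was at 175 against 6.6 CPM, with the complement C1q genes at 0 UMIs. Siglecf led the eosinophil list at 4% and above, where that list summed to 25 CPM. The part of carried-over or foreign transcripts in the divide was not tested. In thinned data, a Cebpe UMI was present in 84.0% (100% unthinned) of cells at 4% and above and in 17.3% of CTX cells below 0.2%.

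Against the other sorted cells of the same library, the azurophil-high cells had early progenitor genes and some S phase genes among those past the limit upwards, and monocyte, interferon-stimulated and chemokine genes among those past it downwards. In the CTX library, 212 of 5774 compared genes (3.67%) stood 1 log2 unit or more above them and 828 (14.3%) that far below, with a median over all compared genes of -0.20. In the naive library, 292 of 5784 (5.05%) were higher and 891 (15.4%) lower, with a median of -0.10. With the median of all genes set to 0 in the CTX comparison, 352 were higher and 582 lower, and without the CTX cells at 4% and above, 192 were higher and 640 lower. Against the sorted cells at 0.2 to 1% alone, far fewer genes passed the limit, with 46 higher and 159 lower in the CTX library and 15 and 97 in the naive library. The ratios given next are to all other sorted cells, most of them below 0.2%, and do not set the azurophil-high cells apart from those neighbours. Of 5543 genes compared in both libraries, 141 were higher in both (66.5% of the CTX and 48.3% of the naive ones), 609 were lower in both (73.6% and 68.4%) and 0 were called in opposite directions.

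**Figure D3:**
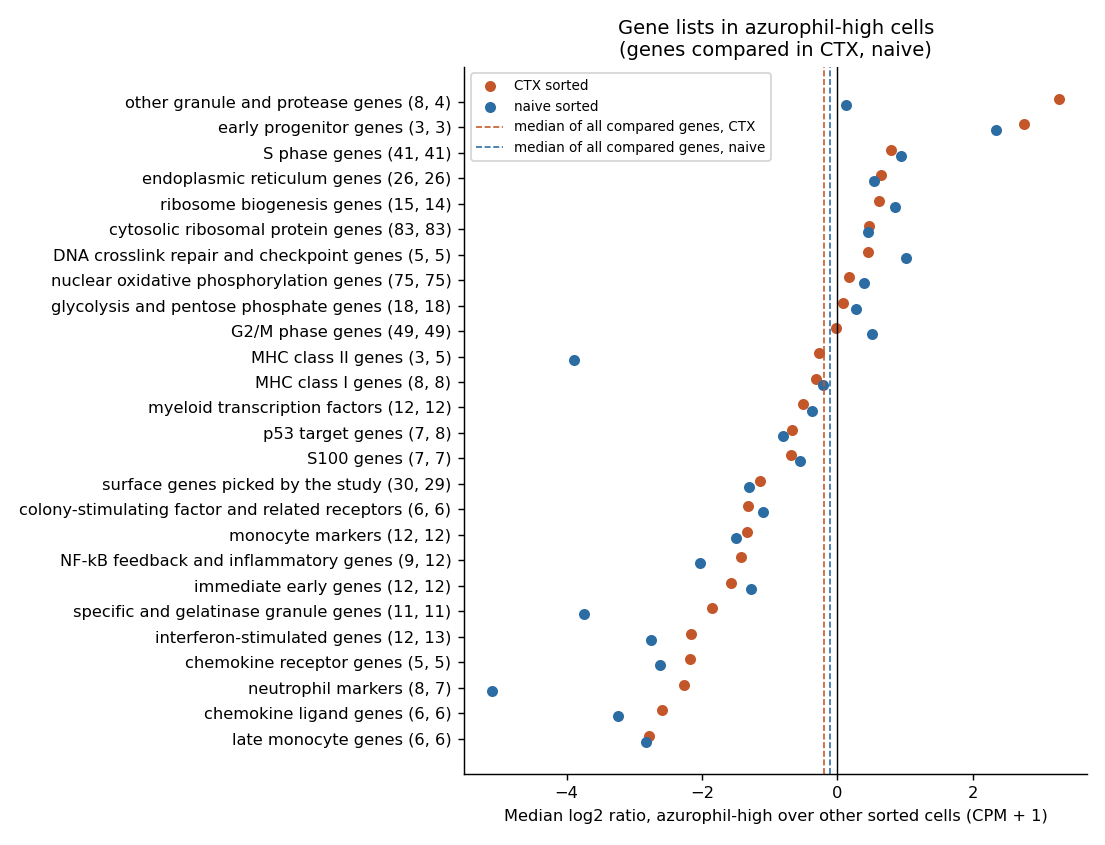
Median log2 ratio of azurophil-high over other sorted cells (horizontal axis) per gene list, in the naive and the CTX library. Lines mark the median of all compared genes. Lists with very few compared genes in either library, and Mpo, Elane, Prtn3 and Ctsg themselves, are left out. Early progenitor, other granule and S phase lists stand to the right in the CTX library, and chemokine, interferon and late monocyte lists to the left in both.

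The gene with the highest ratio outside the rule was Ms4a3, a membrane protein expressed in granulocyte-monocyte progenitors and widely used to trace their offspring. It was at 335 CPM in naive azurophil-high cells against 3.9 in the others (log2 6.10, 6.06 to 6.80), and at 772 against 9.3 CPM in CTX cells (6.23, 6.18 to 6.57). It was at 171.5 and 585 CPM in naive cells at 1 to 2% and 2 to 4%, and at 187, 746 and 2087 CPM in the 3 CTX sets, so that it climbed with the azurophil genes in both libraries. In thinned CTX cells a Ms4a3 UMI was present in 44.9% at 1 to 2%, 89.3% at 2 to 4% and 100% at 4% and above, against 1.12% below 0.2%.

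Genes of early progenitors were higher in all 3 cases that could be compared, in both libraries, with medians of 2.76 (CTX) and 2.35 (naive). Myb, a transcription factor that keeps progenitors dividing, was at 93.8 against 13 CPM in CTX and 53.8 against 9.8 CPM in naive cells. Cdk6, the cyclin-dependent kinase of early G1, was at 118 against 18.0 CPM (2.65) and 75.4 against 14.4 CPM (2.31). The stem cell factor receptor Kit was too low to compare, at 11.9 CPM in CTX and 4.0 CPM in naive azurophil-high cells. Cd34 was at 18.2 and 25.6 CPM against 4.5 and 3.9 CPM in the others, and within the CTX cells it was highest at 1 to 2% (24.0 CPM) and at 5.0 CPM at 4% and above. Kit ran the other way: in thinned CTX cells a Kit UMI was present in 2.04% at 1 to 2%, 7.14% at 2 to 4% and 20% at 4% and above. These shares rested on 1, 2 and 5 cells. The list of 15, which holds Ms4a3, summed to 413, 1027 and 2468 CPM in the 3 CTX sets. Ms4a3 led that sum in each, and 8 of the 15 genes were at 0 at 4% and above.

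Of the 10 other granule and protease genes, 8 could be compared in the CTX library, where 6 were higher and 1 lower (median 3.28), and 4 in the naive library, where 2 were higher and 1 lower (median 0.13). The naive median rested on few genes, because Prss57, Nkg7, Cd63 and Cst7 had too few UMIs there, at 64.6, 94.2, 17.5 and 74.0 CPM against 0.9, 1.9, 3.4 and 5.8 CPM in the other naive cells. Srgn was at 1780 against 234 CPM in CTX cells (2.92) and at 958 against 448 CPM in naive cells (1.1). Serpinb1a, an inhibitor of the granule proteases, was at 395 against 76.4 CPM (2.35) and 163 against 67.5 CPM (1.26). Its CTX ratio was 1.34 without the cells at 4% and above. Fcnb, a ficolin of early granulocytes, was at 401 against 88.9 CPM (2.16) and 136 against 54.3 CPM (1.31), and it was the single higher gene of 11 compared among those of later specific and gelatinase granules. Of the rest of that list, 8 were lower in CTX and 9 in naive cells, and the medians over the list were -1.85 and -3.73. A few cells weighed on these ratios: per cell the summed list had a median of 1125 CPM in naive azurophil-high cells and 1718 CPM in the others, where 1 cell reached 179101 CPM, and of 1395 and 1682 CPM in CTX cells. In naive azurophil-high cells, Camp and Ngp, proteins of specific granules, had no UMI against 391 and 344 CPM in the summed others, at least 96.9- and 85.1-fold lower. Those UMIs lay in few cells, since Camp was seen in 68 of 1680 naive cells below 0.2% (2.74% thinned) and in 8 of 176 at 0.2 to 1%, and 0 of 34 thinned azurophil-high cells has an exact upper limit of 10.3%. A lower share of cells with Camp was therefore not detectable among so few cells.

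Other genes with high ratios in both libraries had varied functions. Alas1, the first enzyme of heme synthesis, whose product sits in myeloperoxidase, was at 227 against 34.4 CPM in CTX (2.69) and 120 against 36.1 CPM in naive cells (1.70). Phgdh, the first enzyme of serine synthesis, was at 110 against 25.4 CPM (2.07) and 131 against 19.5 CPM (2.69). Igfbp4, a binding protein of insulin-like growth factors, was at 222 against 23.2 CPM (3.20) and 161.5 against 19.4 CPM (3.0). Rgcc, a regulator of the cell cycle, was at 172 against 6.7 CPM (4.49) and 76.7 against 15.4 CPM (2.25). The glutathione transferase Mgst2 (3.01 and 2.44), the lipopolysaccharide binding protein Lbp (2.47 and 2.01), Tma16 (2.87 and 1.70), the uracil glycosylase Ung (2.07 and 1.93) and the small GTPase Rab44 (1.95 and 1.84) completed the 15 highest. Leaving out the CTX cells at 4% and above lowered Alas1 to 1.40, Tma16 to 1.63 and Srgn to 1.92, and Phgdh and Ung kept 2.04 and 2.08. Ms4a3 went to 5.23, Rgcc to 3.16 and Fcnb to 1.51, while Igfbp4 stood at 2.99. Against the sorted cells at 0.2 to 1%, Ung was below the limit in both libraries, Phgdh in CTX, and Myb, Lbp, Serpinb1a, Fcnb and Rab44 in naive cells.

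Beside the 3.67% (CTX) and 5.05% (naive) of all genes that were higher, lists of the secretory and growth machinery differed in their counts. Of 26 genes of the endoplasmic reticulum, 5 were higher in CTX and 4 in naive cells and 0 lower (medians 0.65 and 0.54), among them the chaperone Calr at 640 against 221 CPM and 571 against 231 CPM. Ribosome biogenesis had 4 of 15 higher in CTX and 4 of 14 in naive cells, with 0 lower (0.62 and 0.85), Gar1 and Wdr12 among them. The cytosolic ribosomal proteins had medians of 0.46 in both libraries, with 1 and 2 of 83 past the limit, and oxidative phosphorylation 0.18 and 0.40.

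Cell cycle transcripts were present in the azurophil-high cells and in many others. Of 43 S phase genes, 41 were compared: 16 were higher in CTX and 15 in naive cells, 0 were lower, and the medians were 0.80 and 0.95. Hells, a helicase of replicating chromatin, was at 102 against 41.1 CPM and 101 against 30.5 CPM, and Rrm2, the small subunit of ribonucleotide reductase, at 265 against 121 CPM and 262.5 against 96.4 CPM. The G2/M list had 0 of 49 past the limit in CTX cells (median -0.02, against -0.20 for all genes) and 3 higher in naive cells (0.52). Per cell the summed G2/M list differed more, with medians of 9186 CPM in naive azurophil-high cells and 2156 CPM in the other naive cells. The CTX medians were 10542 and 6532 CPM at 1 to 2% and 2 to 4%, against 2157 CPM below 0.2%. At 0.2 to 1% they were 9327 CPM (naive) and 10033 CPM (CTX). Sorted cells at 0.2 to 1%, just short of the limit, had more Mki67 (517.5 CPM in CTX, 492.5 in naive cells) than those at 1 to 2% (384 and 249.5 CPM) or below 0.2% (335 and 270 CPM). The share of thinned cells with an Mki67 UMI set the last 2 apart. In CTX cells it was 78.6% at 0.2 to 1%, 69.4% at 1 to 2% and 33.9% below 0.2%. In naive cells it was 80.6%, 61.9% and 28.3%. Higher up it was 46.4% at 2 to 4% and 20% at 4% and above in CTX cells, and 76.9% at 2 to 4% in naive cells. The summed S phase list had a median over cells of 4465 CPM in naive cells at 0.2 to 1%, against 3648 and 2869 CPM at 1 to 2% and 2 to 4%, and of 4409 CPM in CTX cells at 0.2 to 1%, against 3515, 4271 and 3017 CPM in the 3 higher sets.

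Most of the monocyte markers were lower. Of 12 markers, 8 were lower and 0 higher in each library (medians -1.34 and -1.49), and Ly6c2 itself differed little, at 669 against 789 CPM in CTX and 654 against 813 CPM in naive cells. Itgam, the gene of the sorted antigen CD11b, was at 26.7 against 139.5 CPM and 18.8 against 156 CPM. Csf1r, the receptor for the monocyte growth factor M-CSF, was at 59.0 against 152 CPM and 52.5 against 161 CPM. Lyz2, the most abundant lysozyme gene of these cells, was at 5323 against 28645 CPM and 4630 against 28804 CPM. A gate on 2 surface proteins had thus taken cells in which the transcript of 1 of them was near that of the other sorted cells and that of the other was several-fold lower.

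The late monocyte list had 6 of 6 lower in CTX and 5 of 6 in naive cells (medians -2.78 and -2.83), led by Apoe at 43.8 against 393 CPM and 4.0 against 649 CPM. Per cell, the summed list already stood lower short of the limit, with naive medians of 748 CPM below 0.2%, 172 CPM at 0.2 to 1% and 87.9 CPM in azurophil-high cells, and CTX medians of 564, 153 and 61.3 CPM. Fibronectin (Fn1) was at 86.9 against 1547 CPM (-4.14, -4.39 to -3.92) and 84.8 against 1552 CPM (-4.18, -4.57 to -3.84). The lectins Clec4a1 (-4.59 and -3.69) and Clec4a3 (-3.96 and -5.35), the phospholipase Plbd1 (-4.47 and -6.51), thrombospondin Thbs1 (-4.30 and -3.50) and Metrnl (-4.20 and -3.88) were among the 15 lowest. Retnlg had 1 UMI in CTX and none in naive azurophil-high cells, against 165 and 81.1 CPM in the others. Cd74, the invariant chain of MHC class II, had no UMI in naive azurophil-high cells, at least 29.6-fold lower. Of the MHC class II list, 1 of 3 compared genes was lower in CTX and 3 of 5 in naive cells (medians -0.27, close to that of all genes, and -3.89). MHC class I genes differed little, with 0 of 8 past the limit in CTX and 1 lower in naive cells (medians -0.31 and -0.21).

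Most of the compared interferon-stimulated, chemokine and immediate early genes and NF-kB targets were lower. Interferon-stimulated genes were lower for 11 of 12 compared in CTX and 12 of 13 in naive cells (medians -2.16 and -2.76), with Ifitm3, which hinders viral entry, at 540 against 2738 CPM and 464 against 3412 CPM. Bst2 was the exception in both (-0.36 and -0.89). Chemokine ligands were lower for 5 of 6 and 6 of 6 (-2.59 and -3.23), with Ccl6 at 28.4 against 433 CPM and 22.9 against 610 CPM, and chemokine receptors for 4 of 5 in each library. Targets of NF-kB were lower for 6 of 9 and 10 of 12 and immediate early genes for 8 and 7 of the compared ones, Atf3 at 47.7 against 745 CPM (-3.94) and 92.9 against 1236 CPM (-3.72). Fos and its relatives also respond to tissue handling, whose part was not tested.

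Because CTX damages DNA, targets of p53 and crosslink repair genes were listed too. Of the p53 targets, 3 of 7 were lower in CTX and 3 of 8 in naive azurophil-high cells, beside 14.3% and 15.4% of all compared genes, and 0 were higher, the cell cycle inhibitor Cdkn1a standing at 16.5 against 88.9 CPM and 17.5 against 145 CPM. Crosslink repair genes had 2 of 5 higher in CTX and 3 of 5 in naive cells, beside 3.67% and 5.05% of all compared genes, with 0 lower. Both lists are too small to be read against these shares.

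Of 30 genes of surface proteins that the study picked from these sorted libraries, 2 were higher and 15 lower in the CTX cells. In the naive cells, 1 was higher and 16 lower of 29 compared. The medians were -1.14 (CTX) and -1.31 (naive). Over all compared genes, 3.67% were higher and 14.3% lower in CTX cells, and 5.05% and 15.4% in naive cells. The higher counts were near those shares. Since the genes were picked on these libraries, their direction is not independent evidence. The inhibitory collagen receptor Lair1 was higher in both, at 64.2 against 16.9 CPM and 39.0 against 10.5 CPM. The chemokine receptor Cx3cr1 was at 8.0 against 54.6 CPM and 8.1 against 69.8 CPM. Cxcr4, which holds cells in the marrow, was not higher, at 55.1 against 69.8 CPM and 43.1 against 58.4 CPM, and within the CTX library it was at 89.7 CPM at 0.2 to 1%, 81.0 at 1 to 2%, 33.0 at 2 to 4% and 25 at 4% and above. In thinned CTX cells a Cxcr4 UMI was present in 38.8% at 1 to 2%, 8% at 4% and above and 23.4% below 0.2%. The cells highest in the azurophil genes were thus not the cells highest in Cxcr4.

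Transcripts of other marrow cells were near 0 in most lists. T and NK cell markers summed to 0 CPM in naive and 1.14 CPM in CTX azurophil-high cells, erythroid markers to 0 and 0.568 CPM, basophil markers to 0 and 2.27 CPM, megakaryocyte markers to 0 and 1.14 CPM and dendritic cell markers to 1.35 and 2.84 CPM. B lineage markers stood at 28.3 and 34.1 CPM, as in the other sorted cells (26.9 and 33.0 CPM), with Cd79b leading. Plasma cell transcripts were at 17.5 CPM in naive azurophil-high cells and 3681 CPM in the other naive cells, led by Igkc, and at 2.84 and 11.2 CPM in the CTX library. Neutrophil markers summed to 4356 CPM in naive and 17307 CPM in CTX azurophil-high cells, against 5903 and 10661 CPM in the others. The order of the naive sums turned per cell, with a median of 683 CPM in azurophil-high cells and 257 CPM in the others, of which 1 reached 588880 CPM, and the CTX medians were 3122 and 440 CPM. Gene by gene, 1 of 8 compared neutrophil markers was higher and 5 lower in CTX, and 0 of 7 higher and 5 lower in naive cells, and their part in the results was not tested. Macrophage markers stood at 6.73 and 56.3 CPM, against 46.6 and 40.02 CPM in the others, and plasmacytoid dendritic cell markers, led by Tcf4, at 20.2 and 15.3 CPM against 50.6 and 65.7 CPM.

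Among the azurophil-high cells thinned to 5000 UMIs (102 CTX and 34 naive cells), the rank order of the share of the 4 genes went with other lists. Spearman's rho with the monocyte markers was -0.72 in CTX and -0.58 in naive cells, with interferon-stimulated genes -0.61 and -0.65, with early progenitor genes (led by Ms4a3) 0.73 and 0.53, and with Ms4a3 0.77 and 0.56. With Irf8 it was -0.60 in CTX and 0.05 in naive cells, and with G2/M genes -0.51 in CTX and -7.65e-05 in naive cells. The CTX set held 25 cells at 4% and above and the naive set none, and over the 77 CTX cells at 1 to 4%, a subset added after seeing the data, the values were smaller, at -0.20 for Irf8, -0.33 for G2/M genes, -0.45 for monocyte markers, -0.32 for interferon-stimulated genes, 0.51 for early progenitor genes and 0.56 for Ms4a3. The rule used the 4 genes themselves, so the rho of each with the sum of the other 3 is a description only: Prtn3 at 0.81 and 0.78, Elane at 0.72 and 0.63, Mpo at 0.69 and 0.65, Ctsg at 0.62 and 0.50. All points of a library share its preparation, so these values describe the cells and carry no p.

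Compared as a whole, azurophil-high cells of CTX mice had 18 of 1629 genes (1.1%) at least 1 log2 unit above those of naive mice and 6 (0.368%) at least 1 below, with a median of all compared genes of -0.07. The naive set held no cell at 4% and above, so the same comparison was made at 1 to 4%, where the sums of the 4 genes were alike (18750 CPM in CTX, 19171 CPM in naive cells). There, 5 of 1422 genes (0.352%) were higher and 2 (0.141%) lower, with a median of -0.03. Much of the gap between CTX and naive azurophil-high cells lay in the 27 CTX cells at 4% and above. The 2 libraries differ in treatment and in preparation alike, and these cannot be told apart.

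Several genes showed how the gap closed. Cd63 was at 188 CPM in CTX and 17.5 CPM in naive azurophil-high cells (log2 3.35, 2.63 to 4.35), and at 33.1 CPM (0.88) in CTX cells at 1 to 4%. Nkg7 went from a log2 ratio of 1.80 to 0.46, Wfdc21 from 2.87 to 1.09, the bactericidal protein Pglyrp1 from 2.39 to 0.90, Fcnb from 1.55 to 0.90 and the metallothionein Mt1 from 1.32 to 0.36. In the other sorted cells the ratios of CTX over naive were 0.85 for Cd63, 0.85 for Wfdc21, 0.43 for Pglyrp1, 0.70 for Fcnb and -0.58 for Mt1.

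The 5 genes still higher at 1 to 4% were Camp, Ngp, S100a9, S100a8 and Chil3. Camp had 357 CPM in CTX cells at 1 to 4% and no UMI in naive ones, at least 88.3-fold higher, and Ngp 261 CPM against no UMI, at least 64.6-fold higher. These rested on few cells: 8 CTX cells had at least 0.1% of UMIs from Camp, Ltf and Ngp, 6 of them at 4% and above and 2 at 2 to 4%, and without the 2, Camp kept 9 UMIs and Ngp 3. S100a9, a calcium-binding protein of neutrophils and monocytes, was at 9016 against 1506 CPM over all azurophil-high cells (2.58, 2.49 to 2.67). Its ratio was 1.74 at 1 to 4%, 0.77 without the 2 cells and 0.91 in the other sorted cells, and S100a8 went from 1.42 to 1.04 and 0.34, with 0.84 in the others. The chitinase-like Chil3 was at 139 against 48.5 CPM at 1 to 4% (1.5). Without the 2 cells, 3 of 1407 genes were past the limit.

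On the lower side, Nfkbia, the inhibitor of NF-kB, was at 75.6 against 218 CPM (-1.52; -1.71 at 1 to 4%). It differed more between the libraries in the other sorted cells, at -2.24. Hist1h2ap (-1.1), Klf2 (-1.08), Ccl3 (-1.14) and Pim1 (-1.08) were past the limit over all azurophil-high cells and at -0.99, -0.78, -0.78 and -0.75 at 1 to 4%. In the other sorted cells, 49 of 5552 genes were past the limit. These genes were also lower in the rest of their library, Hist1h2ap at -0.74, Klf2 at -0.58, Ccl3 at -1.05 and Pim1 at -0.69.

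**Figure D4:**
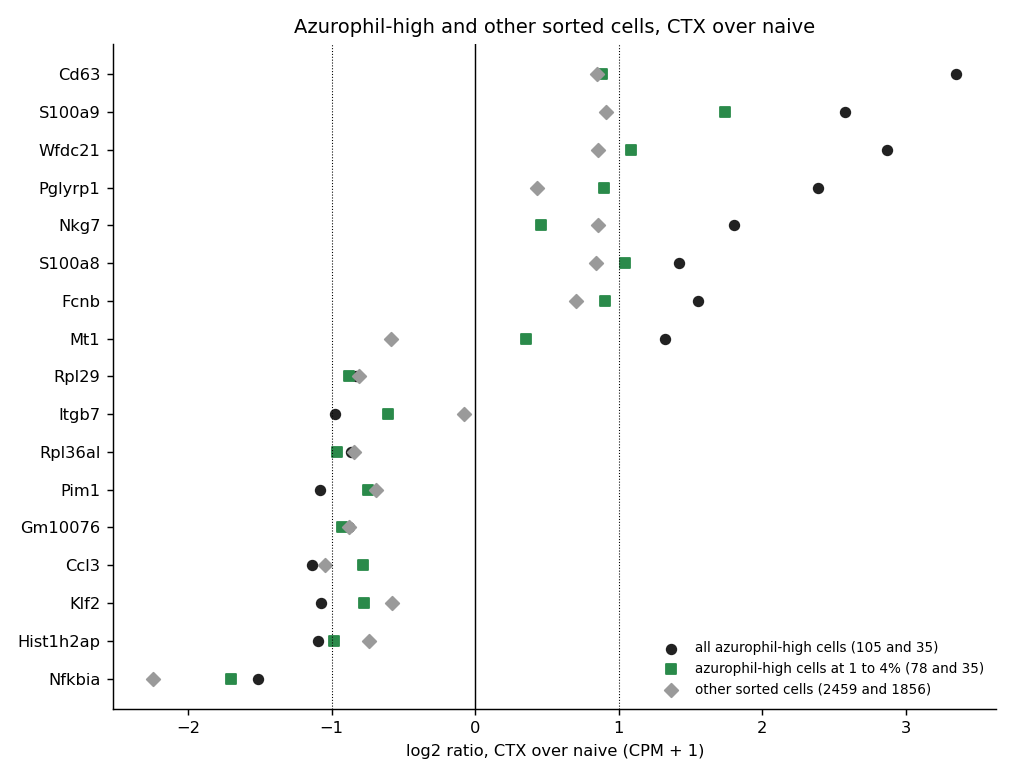
Log2 ratio of CTX over naive cells (horizontal axis) for named genes with UMIs in both libraries, as 1 point each for all azurophil-high cells, those at 1 to 4% of UMIs from the 4 genes, and the other sorted cells; dotted lines mark the limit of 1 log2 unit. Cd63 moves from 3.35 to 0.88 once cells at 4% and above are left out, while Nfkbia lies below -1 in all 3 sets, at -1.52, -1.71 and -2.24.

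Whole BM held cells of the same description. By the same rule they were 210 of 7104 kept cells (2.96%, 2.57 to 3.38) in naive, 58 of 6126 (0.947%) in D2 CTX and 568 of 8290 (6.85%, 6.32 to 7.42) in D7 CTX BM. Cells at 4% and above numbered 88 (1.24%), 2 (0.0326%) and 232 (2.80%). The whole naive marrow thus held such cells while the naive sort held none, and they were fewest on day 2. These shares are of different cell mixtures and are set side by side only.

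The CTX sorted cells at 4% and above were set against the D7 CTX whole BM cells at 4% and above, where 41 of 1383 genes (2.96%) were higher by 1 log2 unit or more and 26 (1.88%) lower in the sorted cells (median 0.10). Early granule genes differed little: Ms4a3 was at 2087 and 2151 CPM (-0.04, -0.15 to 0.06), Prss57 at 466 and 424 CPM (0.14, -0.10 to 0.36) and Cd63 at -0.28, and 0 of 7 other granule genes were past the limit. Both sets were low in the monocyte regulators, with Irf8 at 62.6 and 17.5 CPM, Klf4 at 17.5 and 2.1 CPM and Ccr2 at 10.0 and 6.8 CPM. Low as they were, Irf8 and Klf4 stood higher in the sorted cells. Vcam1 was found in both, at 175 and 306 CPM. Later granule genes were lower in the sorted cells, with Camp at 32.5 against 1899 CPM (-5.82), Ltf at -4.29 and Ngp at 668 against 1973 CPM (-1.56). Ly6c2 was higher in the sorted cells (0.93). Early granule genes were thus at like levels in the sorted and the unsorted cells, with more of the gene for the sorted antigen and less of the specific granule genes in the sorted ones. Hist1h2ap (5.70) and Gm10076 (3.18) were among the highest ratios, and the part of separate library preparation in them was not tested.

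At 1 to 4% the sorted and whole BM cells were unlike. Of 2737 genes, 328 (12%) were higher and 108 (3.95%) lower in the sorted cells (median 0.40). Monocyte genes were higher for 8 of 10 and lower for 1, with the marker sum at 3953 against 1375 CPM. Neutrophil markers were lower for 8 of 8 (median -5.24), with the sum at 11543 against 170735 CPM, and specific granule genes for 10 of 12 (-3.57), Camp at 357 against 13327 CPM. Within the limits of 1 to 4%, most compared specific granule and neutrophil genes were thus higher in whole marrow cells. Most compared monocyte genes were higher in sorted cells. The sets were not matched inside these limits: at 1 to 2% and 2 to 4% there were 122 and 214 whole marrow cells, against 50 and 28 sorted cells.

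**Figure D5:**
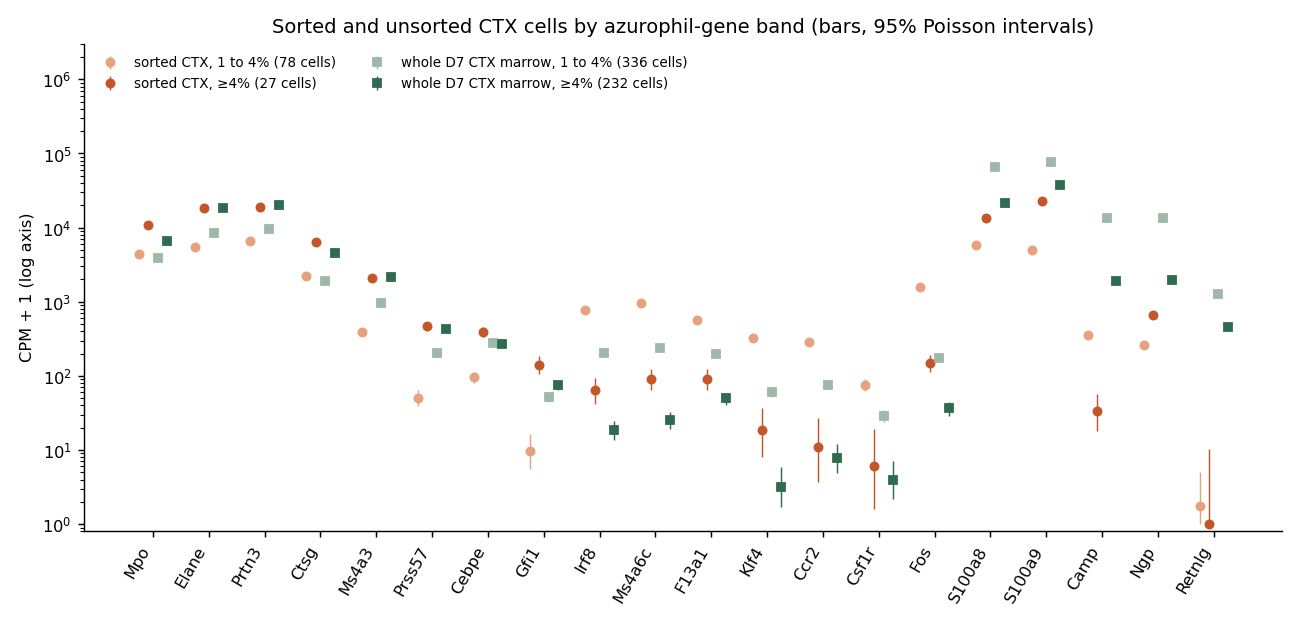
Levels (CPM + 1, log axis) of 20 granule, regulator, monocyte and neutrophil genes along the horizontal axis, in CTX sorted cells (circles) and D7 CTX whole BM cells (squares), in pale colours for cells at 1 to 4% and dark ones for cells at 4% and above; bars are exact Poisson intervals. At 4% and above Ms4a3 and Prss57 lie at nearly the same height in both, Camp is far lower in the sorted cells, and at 1 to 4% Irf8 is higher in the sorted cells (775 against 205.5 CPM).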

How the data were processed

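The single-cell RNA of the 5 libraries was captured with 10x 3′ V3 reagents, and the deposited matrices hold raw UMI counts per gene and cell that the authors made with Cell Ranger 3.1 on mm10, per the submitters' processing notes, which also list Seurat 5.0. Cells were kept as the study states (at least 200 genes, less than 20% mitochondrial UMIs). The study reports more cells for each library than these matrices hold, so the cells described here are not its full set. Azurophil-high cells were those with at least 1% of UMIs from Mpo, Elane, Prtn3 and Ctsg. The members, gene lists and limits were chosen with earlier results of these data known.

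UMIs were summed over the cells of a set and divided by their total (CPM). A log2 ratio is log2((CPM 1 + 1)/(CPM 2 + 1)), so it understates the change of low genes. A gene was compared with at least 200 UMIs over both sets and at least 20 CPM in 1 of them, and counted as past the limit at 1 log2 unit. With 1 library per group, no test was made. Intervals are exact (Poisson, Clopper-Pearson or conditional binomial). The interval of a log2 ratio is of the counts without the added 1 CPM, so for low genes the ratio lies off the middle of it. The counting step was tested on simulated data. The depth per library is the UMI total given in the report, and precision is that of the UMIs behind each value.

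Besides the 4 genes, the named genes were the 15 highest and 15 lowest ratios of azurophil-high over other CTX sorted cells among genes past the limit in both libraries, the 10 genes with the highest lower bound and the 10 with the lowest upper bound of CTX over naive, and list genes as examples; immunoglobulin, Xist and Y-linked genes were left out of the ranking. Doublets were the cells with the top Scrublet scores (scanpy 1.11.5), 0.8% per 1000 cells; they were kept, and left out as an alternative. Other alternatives were limits of 0.5 and 2%, a rule of 3 of the 4 genes in cells thinned to 5000 UMIs, other comparison cells, cell filters, pseudocounts, totals, scaling and summing. Python 3.11.15, numpy 2.4.6, scipy 1.17.1, pandas 2.3.3 and matplotlib 3.10.9 were used. Promoter sequences are RefSeq's (GRCm38.p6). Results for some genes are not reported here.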

Additional observations from a re-analysis of the deposited data

How the results depend on the processing

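The alternatives were run for azurophil-high over other sorted cells in each library and for CTX over naive azurophil-high cells. In these comparisons only the genes named by the rule were recomputed, and no ratio past the limit of 1 log2 unit changed sign. Camp at 4% and above over 1 to 4% lay outside them and did turn without 2 cells, as given above. Below the limit, 3 ratios changed sign, all for CTX over naive azurophil-high cells. Without the cells at 4% and above, Mpo went from 0.28 to -0.14, Prtn3 from 0.45 to -0.04 and Ctsg from 0.44 to -0.05. With the sets below 4% weighted by their share of the 4 genes, all 3 were also below 0. Of 1162 gene ratios recomputed, 914 stayed within their counting interval and 248 moved, and of 90 counts and shares 63 stayed close. The share of azurophil-high cells moved with the rule, in naive cells to 4.34% at a limit of 0.5%, 0.687% at 2% and 6.24% for at least 3 UMIs of 3 of the 4 genes at 5000 UMIs, and in CTX cells to 7.995%, 2.15% and 8.89%, or 3.07% without the cells at 4% and above (an alternative chosen after seeing the data). For azurophil-high over other CTX cells, a 2% limit gave 1342 genes lower, sorted cells at 0.2 to 1% as the comparison gave 46 higher and 159 lower, no filter on low genes gave 639 and 1752, and setting the median of the ratios to 0 gave 352 higher. For naive cells, the cells at 0.2 to 1% gave 15 higher and 97 lower, the mean of the cells' CPM gave 515 higher, and no filter gave 923 and 2168. For CTX over naive azurophil-high cells, a 2% limit gave 15 lower, leaving out cells with Camp, Ltf and Ngp gave 11 higher, leaving out those at 4% and above gave 5 higher and 2 lower, weighting the sets by their share of the 4 genes gave 5 and 3, no filter gave 1205 and 843, and thinning to 5000 UMIs gave 18 lower. No paired analysis was possible because each group had 1 library. The limits are those of the design: 1 library per condition, pooled mice, 35 naive cells, and a rule set on the measured values.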

Other observations

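Some lists were not described above. Their counts stand beside 3.67% higher and 14.3% lower over all compared genes in CTX cells and 5.05% and 15.4% in naive cells, and a count of 1 or 2 members cannot be read against those shares. Of 14 myeloid transcription factors, 12 were compared with the other sorted cells: Myb and Cebpe were higher and 4 lower in CTX cells (median -0.51), and 1 was higher and 4 lower in naive cells (-0.37). Zeb2, a repressor needed for monocyte and dendritic cell fates, was at 174 against 540 CPM in CTX and 161.5 against 625 CPM in naive cells, and Id2, an inhibitor of helix-loop-helix factors, at 22.2 against 153 CPM and 12.1 against 137 CPM. Of colony-stimulating factor and related receptors, 4 of 6 were lower in each library (-1.31 and -1.10) and 0 higher. Glycolysis and pentose phosphate genes had 1 of 18 lower in CTX and 1 of 18 higher in naive cells (0.08 and 0.28).

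Of the calcium-binding S100 genes, 1 of 7 was higher and 2 lower in CTX cells and 0 higher and 2 lower in naive cells (-0.68 and -0.54). S100a8 was at 2898 and 2755 CPM in naive cells at 1 to 2% and 2 to 4%, and at 3135, 10779 and 13648 CPM in the CTX sets; without the 2 cells at 2 to 4% that were rich in Camp and Ngp, the level at 1 to 4% went from 5856 to 3597 CPM, while S100a6 ran down, from 1085 to 401 CPM in naive and from 1102.5 to 17.5 CPM in CTX cells. Of the stefin A cluster, 1 gene could be compared in CTX cells and was lower (-4.57), and 0 in naive cells. The interferon-stimulated Ifitm3 was higher in CTX than in naive azurophil-high cells at 1 to 4% (log2 0.57) and lower in the other sorted cells (-0.32), and Ifi27l2a was at 0.94 and -0.53. Neither difference of ratios was tested, since each rests on 1 library a side.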
